A study of Penicillium oxalicum with 9 samples.

Results

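Genes whose transcript levels moved in opposite directions when *rsrA* or *rsrB* was deleted were examined in *Penicillium oxalicum*. The genes were selected from the FPKM values of all 9 libraries of the series, on the log2(FPKM + 1) scale. A gene was taken when its mean lay at least 0.7 above that of the parental strain Δ*ku70* in one mutant and at least 0.7 below it in the other, when all 3 values of each mutant lay on their side of all 3 Δ*ku70* values, and when the Δ*ku70* values spanned at most 1.5. A run of 12 identifiers, POX08682 to POX08693, was left out by the selection rule, and 0 of its genes met these limits. Of the other 9709 genes, 75 were selected. These comprised 23 genes raised in Δ*rsrA* and lowered in Δ*rsrB*, and 52 genes lowered in Δ*rsrA* and raised in Δ*rsrB*. Since the values themselves chose these genes, their differences from Δ*ku70* are given as a description, and tests on the same libraries are no independent evidence of them.

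RsrA and RsrB are transcription factors (TFs) of this filamentous fungus that act on the production of raw starch-degrading enzymes. RsrA carries SANT-like domains, whereas RsrB carries a zinc finger of the Zn2Cys6 type, a class found in fungi. A TF can activate some promoters and repress others, directly or through further regulators, so the loss of a TF usually lowers one set of transcripts and raises another. Fungi of this genus grow as hyphae that secrete enzymes and can later form conidia, the asexual spores, and the balance between these states changes many transcripts at once.

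The strains compared were Δ*rsrA* (POX01907 deleted in deltaPoxKu70), Δ*rsrB* (POX08340 deleted in deltaPoxKu70) and Δ*ku70*, with 3 libraries each. Δ*ku70* is titled PoxKu70_WT and its genotype is given as WT, but all 3 strains lack *ku70*, a gene of non-homologous end joining whose loss favours targeted deletion. Spores from PDA plates (4 days at 28 °C according to the labels) were grown for 24 h with glucose, and the mycelia were moved for 24 h to a medium that the paper describes as commercial starch of corn and the labels as raw starch in one place and Avicel in another. Poly(A) RNA from mycelium was sequenced, and the number of transformants behind the libraries of each mutant is not given in the sources used here. POX01907 is named as the former identifier of *rsrA*. POX08340 is not named as *rsrB* in the labels, and was taken as *rsrB* from the set of mutants that the paper describes.

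The 9721 listed identifiers are older than those of the current annotation of strain HP7-1, and 0 of them were found in the RefSeq gene table of assembly ASM172317v3. No name, function or position can therefore be given to the genes below, which are named by identifier alone, and neither pathway lists nor markers of hyphae and conidia could be applied. In bulk RNA, fewer cells of a type and less RNA per cell cannot be told apart. The deleted genes fitted the labels. *rsrA* had an FPKM of 0.01, 0.01 and 0.04 in Δ*rsrA*, 24.2, 20.4 and 19.9 in Δ*rsrB* and 22.9, 17.1 and 16.5 in Δ*ku70*. *rsrB* had 8.26, 8.01 and 7.28 in Δ*rsrA*, was listed at 0 in each Δ*rsrB* library, and had 30.6, 35.7 and 30.6 in Δ*ku70*. The mean of *rsrB* in Δ*rsrA* lay below that in Δ*ku70* by 1.91 on the log2 scale (a difference of -1.91), so both mutants had less *rsrB* transcript than Δ*ku70*.

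One library stood apart. Pearson's r of log2(FPKM + 1) across genes was 0.984 between Δ*ku70* replicates 2 and 3, but 0.915 and 0.906 between replicate 1 and these. Without Δ*ku70* replicate 1 the same limits selected 41 genes raised in Δ*rsrA* and lowered in Δ*rsrB*, of which 14 were among the 23, and 75 genes lowered in Δ*rsrA* and raised in Δ*rsrB*, of which 29 were among the 52. Depth is unknown because only FPKM were deposited, and each library summed to between 950456 and 1086112.

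Opposite movement of this size was uncommon. The means of the mutants lay on opposite sides of the Δ*ku70* mean in 3726 of the 9709 genes, but both differences reached 0.7 in only 157 of them. In 86 of these, no mutant value overlapped with Δ*ku70*, and the limit on the spread of Δ*ku70* brought the number to 75. Taken singly, the limits on size and overlap were met by 8.09% of genes for a higher level in Δ*rsrA*, 22.4% for a lower level in Δ*rsrA*, 6.27% for a higher level in Δ*rsrB* and 6.90% for a lower level in Δ*rsrB*. The genes raised in Δ*rsrA* and lowered in Δ*rsrB* made up 0.237% of all genes, and those lowered in Δ*rsrA* and raised in Δ*rsrB* 0.536%. Both mutants were compared with the same Δ*ku70* libraries.

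**Figure D1:**
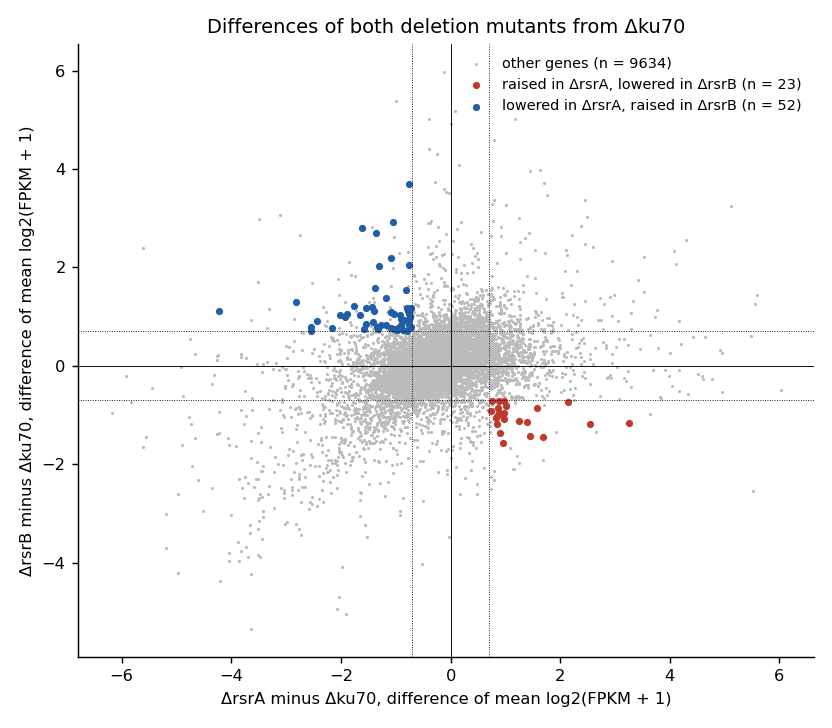
Difference of each deletion mutant from Δ*ku70* in mean log2(FPKM + 1), with Δ*rsrA* on the x axis and Δ*rsrB* on the y axis. Each point is a gene, the dotted lines mark 0.7 in either direction, the 23 genes raised in Δ*rsrA* and lowered in Δ*rsrB* lie at the lower right and the 52 genes lowered in Δ*rsrA* and raised in Δ*rsrB* at the upper left. Grey points beyond the dotted lines at the lower right and upper left overlapped with Δ*ku70*, had a wider Δ*ku70* range, or both.

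The split between both directions depended on scaling. Over all listed genes the median difference from Δ*ku70* was -0.25 in Δ*rsrA* and 0.02 in Δ*rsrB* (log2), and the differences below are given as deposited, without removing this shift. After scaling by the median of ratios, which moved these medians to -0.01 and 0.00, the same limits selected 45 genes raised in Δ*rsrA* and lowered in Δ*rsrB*, including all 23, and 28 lowered in Δ*rsrA* and raised in Δ*rsrB*, all of them among the 52. Quantile normalization gave 39 and 27 genes. The excess of genes lowered in Δ*rsrA* and raised in Δ*rsrB* therefore held for FPKM as deposited and for rescaling to the same total (29 against 44 genes), and was turned round by these other scalings.

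Genes raised in Δ*rsrA* and lowered in Δ*rsrB* had a median Δ*ku70* level near that of all genes. Few weak genes were among them, in part through the selection itself. Their median difference from Δ*ku70* was 0.97 in Δ*rsrA* and -1.01 in Δ*rsrB*, and the larger of both sizes belonged to Δ*rsrA* in 14 genes and to Δ*rsrB* in 9. The level in Δ*ku70* had a median of 26.5 FPKM, against 23.1 over all listed genes. Of the 23 genes, 2 had a Δ*ku70* mean under 5 FPKM (8.70%, against 22.6% of all genes). A gene that is nearly silent in Δ*ku70* cannot fall by the required size in Δ*rsrB*, so the limits kept such genes out. All 3 Δ*ku70* values were under 1 FPKM in 0 of the 23 genes, against 898 of all 9721 genes. Together the 23 genes took 0.321%, 0.296% and 0.298% of the total FPKM in the Δ*rsrA* libraries. In the Δ*rsrB* libraries they took 0.0790%, 0.0672% and 0.0580%, against 0.151%, 0.167% and 0.136% in Δ*ku70*. By median, the mean FPKM in Δ*rsrA* was 4.53 times that in Δ*rsrB*, with a range of 2.88 to 25.4 over the 23 genes.

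The difference between the mutants was widest in POX05492. Its FPKM was 134, 119 and 131 in Δ*rsrA* and 5.16, 4.79 and 5.20 in Δ*rsrB*, against 11.3, 13.7 and 12.7 in Δ*ku70*. The 3 strains formed separate, narrow groups, with a mean in Δ*rsrA* that was 10.2 times that of Δ*ku70*. The log2 difference was 3.26 in Δ*rsrA* (standard error 0.13, limma) and -1.16 in Δ*rsrB* (standard error 0.15). POX03800 had 172, 134 and 169 in Δ*rsrA* and 13.0, 10.3 and 9.81 in Δ*rsrB*, against 26.0, 31.3 and 22.3 in Δ*ku70*. Here too most of the distance between the mutants lay on the Δ*rsrA* side, with differences of 2.54 and -1.19. POX00597, which had the lowest Δ*ku70* level of the 23 genes, followed the same form with 9.80, 10.95 and 15.4 in Δ*rsrA* and 0.68, 0.83 and 0.79 in Δ*rsrB*, against 2.17, 1.88 and 1.74 in Δ*ku70*. These 3 genes were the only ones of the 23 with a difference of 2 or more in Δ*rsrA*, and 0 of the 23 reached that size in Δ*rsrB*.

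In other genes both sides were nearly equal. POX09288, the gene with the largest value of its smaller difference, had an FPKM of 28.6, 26.9 and 22.9 in Δ*rsrA* and 2.1, 1.98 and 2.19 in Δ*rsrB*, against 9.98, 6.29 and 6.43 in Δ*ku70*. Its differences were 1.68 and -1.44, and its mean was 12.5 times as high in Δ*rsrA* as in Δ*rsrB*. POX04289 had 218, 221 and 178 in Δ*rsrA* and 27.2, 28.3 and 25.2 in Δ*rsrB*, against 43.0, 106 and 88.6 in Δ*ku70*. Its Δ*ku70* replicate 1 lay at less than the other Δ*ku70* values and closest to Δ*rsrB*. POX05321 had 17.4, 20.9 and 21.65 in Δ*rsrA* and 3.41, 2.74 and 1.82 in Δ*rsrB*, against 6.26, 10.47 and 4.99 in Δ*ku70*. POX01423 differed by 0.98 and -0.96, with 260, 196 and 261 in Δ*rsrA*, 68.2, 56.0 and 59.7 in Δ*rsrB* and 116, 129 and 114 in Δ*ku70*. Its Δ*ku70* libraries lay closest together among the 11 genes named for this direction.

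**Figure D2:**
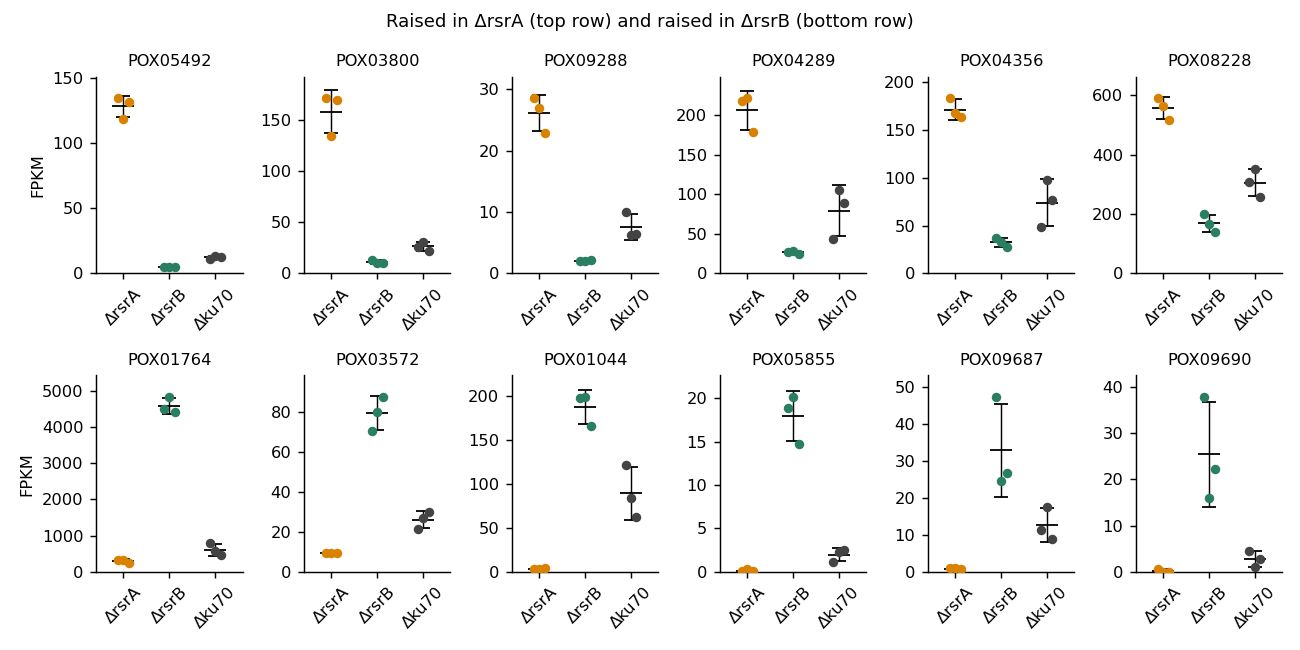
FPKM of 12 of the genes in each library, with Δ*rsrA* on the left, Δ*rsrB* in the middle and Δ*ku70* on the right of each panel. Points are libraries, dashes and bars are the mean and SD (n = 3), and each panel has its own y axis from 0. By the choice of genes, the Δ*ku70* points lie between those of the mutants in every panel.

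Consecutive identifiers occurred among the genes raised in Δ*rsrA*. POX04355 had an FPKM of 41.8, 38.8 and 37.5 in Δ*rsrA* and 9.37, 8.73 and 7.98 in Δ*rsrB*, against 11.1, 32.2 and 20.3 in Δ*ku70*. POX04356 had 183, 167 and 163 in Δ*rsrA* and 36.6, 33.4 and 27.5 in Δ*rsrB*, against 48.2, 97.5 and 76.2 in Δ*ku70*. In both genes the Δ*ku70* libraries kept the same order, with replicate 1 lowest and replicate 2 highest, and without replicate 1 the limits were met by POX04356 and not by POX04355. The genes on either side did not share the pattern in full. POX04354 had differences of 1.01 in Δ*rsrA* and 0.33 in Δ*rsrB*, and POX04357 0.63 and 0.34.

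The other pair held the most abundant genes of this direction. POX08227 had an FPKM of 602, 530 and 437 in Δ*rsrA* and 161, 153 and 122 in Δ*rsrB*, against 256, 323 and 272 in Δ*ku70*. POX08228 had 590, 564 and 518 in Δ*rsrA* and 199, 166 and 140 in Δ*rsrB*, against 308, 351 and 259 in Δ*ku70*. Both genes moved by nearly equal amounts, with differences of 0.88 and -0.97 in POX08227 and of 0.87 and -0.86 in POX08228. Their neighbours POX08226 (0.10 and 0.15) and POX08229 (-0.05 and -0.01) lay near Δ*ku70* in both mutants. POX05321 and POX05323 (5.02, 4.79 and 5.55 FPKM in Δ*rsrA* and 1.04, 0.63 and 0.42 in Δ*rsrB*, against 4.52, 1.66 and 1.65 in Δ*ku70*) are 2 identifiers apart. POX05322 between them was lower in Δ*rsrB* by 1.44 but overlapped with Δ*ku70* in Δ*rsrA*, where its difference was 0.48. In all, 6 of the 23 genes had another of them within 2 identifiers (26.1%, against 0.885% of all listed identifiers), although whether the older identifiers follow the order on the chromosome was not tested.

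The remaining 12 genes of this direction differed from Δ*ku70* by 0.74 to 1.57 in Δ*rsrA* and by -1.57 to -0.71 in Δ*rsrB*. Their Δ*ku70* means ran from 2.61 to 130 FPKM, and their means were 2.88 to 7.35 times as high in Δ*rsrA* as in Δ*rsrB*. POX04152 (0.97 and -0.71) and POX05339 (0.76 and -0.71) lay just inside the limit of 0.7. POX01623 (1.17 and -0.70, unrounded size under the limit) and POX08289 (0.69 and -0.79) lay just outside.

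Genes lowered in Δ*rsrA* and raised in Δ*rsrB* tended to be expressed at lower levels in the parental strain than the typical gene. Their median difference from Δ*ku70* was -1.14 in Δ*rsrA* and 1.01 in Δ*rsrB*, and the larger size belonged to Δ*rsrA* in 29 genes and to Δ*rsrB* in 23. The median Δ*ku70* level was 8.51 FPKM, against 23.1 over all listed genes, and 18 of the 52 genes had a Δ*ku70* mean under 5 FPKM (34.6%, against 22.6% of all genes). By median, the mean FPKM was 2.72 in Δ*rsrA* and 18.4 in Δ*rsrB*, against 8.51 in Δ*ku70*. In 15 of the 52 genes all 3 Δ*rsrA* values were under 1 FPKM, against 1267 of all 9721 genes. That is a larger share of the 52, which were selected for low values in Δ*rsrA*. In 3 of the genes at least 1 library was listed at 0.

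Summed FPKM of the 52 genes made up 0.0713%, 0.0717% and 0.0642% of the total in the Δ*rsrA* libraries and 0.653%, 0.659% and 0.616% in the Δ*rsrB* libraries, against 0.190%, 0.183% and 0.163% in Δ*ku70*. The largest contributor to the sum in the Δ*rsrB* libraries was 1 gene, POX01764. Its FPKM was 325.5, 316 and 240 in Δ*rsrA* and 4510, 4842 and 4409 in Δ*rsrB*, against 797, 574 and 474 in Δ*ku70*. The mean was 7.46 times as high in Δ*rsrB* as in Δ*ku70*, and its differences were -1.04 in Δ*rsrA* (standard error 0.24, limma) and 2.93 in Δ*rsrB* (standard error 0.22). Without POX01764 the other 51 genes still took 0.0406%, 0.0415% and 0.0402% in Δ*rsrA* and 0.219%, 0.207% and 0.210% in Δ*rsrB*, against 0.106%, 0.127% and 0.118% in Δ*ku70*.

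**Figure D3:**
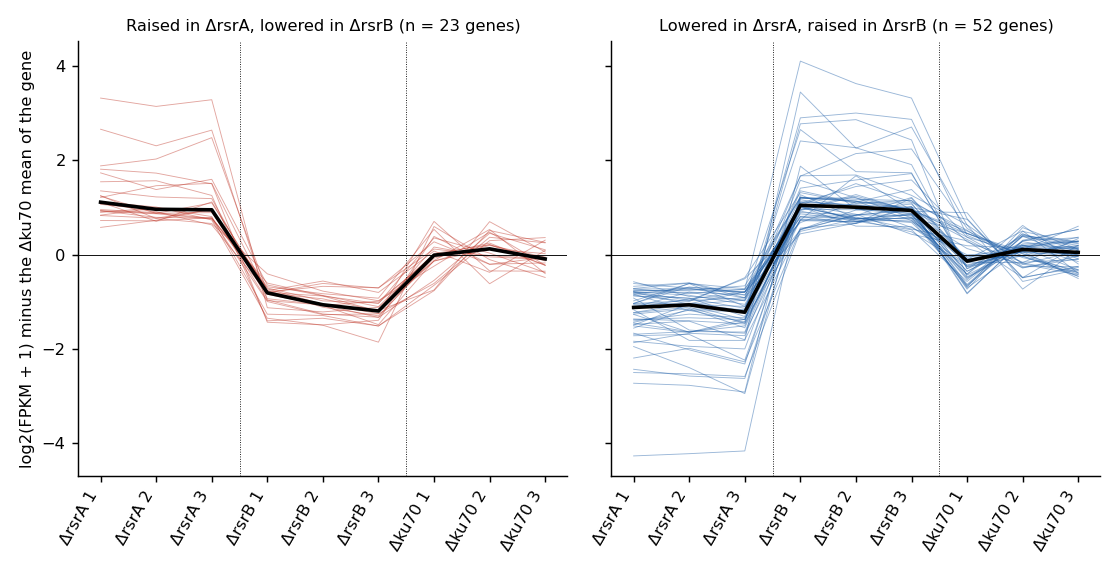
Level of each gene in each library, as log2(FPKM + 1) minus the mean of that gene in Δ*ku70*, for the 23 genes raised in Δ*rsrA* (left) and the 52 genes lowered in Δ*rsrA* (right). Thin lines are genes and the thick line is their median, which lies near 1 and -1 in the mutants by the choice of genes, while Δ*ku70* replicate 1 shows the widest scatter around 0.

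Among the 52 genes, large differences were divided between the mutants. In 7 of them the difference in Δ*rsrA* was at least 2 in size, in 7 others the difference in Δ*rsrB* was, and in 0 were both. The 0 depends on the limit on the Δ*ku70* range. POX07269 (-3.12 and 3.06), POX07270 (-3.50 and 2.98) and POX07173 (-5.60 and 2.39) were left out by that limit alone. On the Δ*rsrA* side, POX01044 stood out with 3.46, 3.61 and 3.80 FPKM in Δ*rsrA* and 198, 199 and 165 in Δ*rsrB*, against 122, 83.7 and 61.9 in Δ*ku70*. Its difference was -4.23 in Δ*rsrA*, where it retained little transcript, and 1.11 in Δ*rsrB*. POX05898 (-2.55 and 0.78) and POX00741 (-2.55 and 0.70) had the same form, and POX00741 was the gene closest to the limit of 0.7 in this direction. The next gene outside it, POX04340, had differences of -1.53 and 0.70 with an unrounded size under the limit. POX01044, POX05898 and POX00741, and POX05323, POX05850 and POX05853 elsewhere, were named after their values had been seen.

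On the Δ*rsrB* side, POX05850 had 37.8, 26.8 and 21.5 FPKM in Δ*rsrB*, against 2.80, 0.60 and 0.85 in Δ*ku70*, while Δ*rsrA* had 0.35, 0.26 and 0.34. Its Δ*ku70* replicate 1 was well above the other Δ*ku70* libraries, and without it POX05850 no longer met the limits. POX05855 had 0.07, 0.28 and 0.07 in Δ*rsrA* and 18.95, 20.2 and 14.7 in Δ*rsrB*, against 1.09, 2.33 and 2.53 in Δ*ku70*. These genes were near absent in Δ*rsrA*, low in the parental strain and clearly expressed in Δ*rsrB*. POX09690 was listed at 0.57, 0 and 0 in Δ*rsrA* and had 37.9, 16.02 and 22.2 in Δ*rsrB*, against 4.48, 1.13 and 2.82 in Δ*ku70*. It had the largest value of the smaller difference among the 52 genes (-1.61 and 2.81), with a wide spread within Δ*rsrB*, where replicate 1 was highest. POX06102 had 0.48, 0.96 and 0.95 in Δ*rsrA* and 12.9, 18.4 and 19.8 in Δ*rsrB*, against 5.44, 2.86 and 2.38 in Δ*ku70*.

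POX03572 was present in every library and shifted by similar amounts to both sides. Its FPKM was 9.33, 9.62 and 9.34 in Δ*rsrA* and 70.7, 80.0 and 87.95 in Δ*rsrB*, against 21.6, 27.2 and 29.8 in Δ*ku70*. The mean was 9.43 ± 0.165 (SD, n = 3) in Δ*rsrA* and 79.6 ± 8.61 (SD, n = 3) in Δ*rsrB*, against 26.2 ± 4.19 (SD, n = 3) in Δ*ku70*, with log2 differences of -1.37 (standard error 0.15, limma) and 1.57 (standard error 0.17). POX09687 had 0.97, 0.91 and 0.73 in Δ*rsrA* and 47.3, 24.5 and 26.6 in Δ*rsrB*, against 11.2, 17.6 and 8.97 in Δ*ku70*. Its difference was -2.81 in Δ*rsrA*, where every value was under 1 FPKM, and 1.30 in Δ*rsrB*. POX09413 had 1.03, 1.33 and 1.25 in Δ*rsrA* and 14.3, 20.2 and 15.1 in Δ*rsrB*, against 9.65, 5.22 and 5.22 in Δ*ku70*.

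Several weak genes repeated this form. POX02394 had an FPKM of 0.60, 0.23 and 0.49 in Δ*rsrA* and 10.6, 7.92 and 5.64 in Δ*rsrB*, against 4.28, 2.90 and 1.81 in Δ*ku70*. POX02093 had 0.39, 0.26 and 0.48 in Δ*rsrA* and 9.18, 7.51 and 7.51 in Δ*rsrB*, against 1.94, 3.46 and 3.81 in Δ*ku70*. In these genes the added 1 of the log scale takes up much of the value, so the log2 differences understate the ratios. POX03777, the gene with the lowest Δ*ku70* level, was listed at 0, 0 and 0.07 in Δ*rsrA* and had 2.93, 2.83 and 2.75 in Δ*rsrB*, against 1.32, 0.66 and 0.27 in Δ*ku70*. POX09084, the second most abundant gene of this direction by its mean over all libraries, was by contrast present throughout, with 65.9, 74.7 and 83.2 in Δ*rsrA* and 197, 231 and 334 in Δ*rsrB*, against 135, 161 and 141 in Δ*ku70*.

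Pairs of consecutive identifiers were found here too. POX04388 had an FPKM of 1.39, 1.49 and 1.47 in Δ*rsrA* and 15.7, 15.0 and 13.8 in Δ*rsrB*, against 9.56, 7.09 and 4.44 in Δ*ku70*. POX04389 had 0.73, 1.17 and 1.08 in Δ*rsrA* and 6.21, 7.91 and 6.21 in Δ*rsrB*, against 3.71, 2.09 and 2.69 in Δ*ku70*. Both were lower than every Δ*ku70* value in Δ*rsrA* and higher than every one in Δ*rsrB*, as the limits require of each selected gene. The identifier before them, POX04387, was lower in Δ*rsrA* as well (-1.42) but lay at 0.04 in Δ*rsrB*, and the one after them, POX04390, differed by 0.10 and -0.22. POX09687 and POX09690 are 3 identifiers apart, and the genes between them did not share the pattern in full. POX09688 differed by -0.44 and 1.67 but overlapped with Δ*ku70* in Δ*rsrA*, and POX09689 (-0.88 and 0.46) overlapped with Δ*ku70* in both mutants. In all, 6 of the 52 genes had another of them within 2 identifiers (11.5%, against 2.03% of all listed identifiers), and 13 had one within 5 identifiers (25%, against 4.73%), a distance that takes in more of the run described next.

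The densest group lay between POX05850 and POX05871, a run that was picked out after the values had been seen. It holds 22 consecutive identifiers and 5 of the 52 genes, POX05850, POX05853, POX05855, POX05870 and POX05871. POX05870 had 1.00, 0.61 and 0.53 FPKM in Δ*rsrA* and 8.54, 8.65 and 6.15 in Δ*rsrB*, against 3.63, 1.60 and 1.22 in Δ*ku70*. POX05871 had 0.20, 0.32 and 0.28 in Δ*rsrA* and 4.03, 3.29 and 2.20 in Δ*rsrB*, against 1.14, 1.23 and 1.08 in Δ*ku70*. By sign alone, the mean was above Δ*ku70* in Δ*rsrB* for all 22 genes and below Δ*ku70* in Δ*rsrA* for 20. Among all listed genes, 28.7% had a mean below Δ*ku70* in Δ*rsrA* and above it in Δ*rsrB*. Every Δ*rsrB* value was above every Δ*ku70* value in 19 genes of the run, and every Δ*rsrA* value below in 14. The share of all genes without overlap at any size was not counted, so these 19 and 14 have no background. Differences of at least 0.7 without overlap were found upwards in Δ*rsrB* for 18 of the 22 genes (6.27% of all genes) and downwards in Δ*rsrA* for 9 (22.4% of all genes). Since the run was picked for these values, nothing further is read from the counts.

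Many of the other genes of this run were low in Δ*ku70*. Of the 17 genes that were not selected, 12 had a Δ*ku70* mean under 1 FPKM. In all 12 every Δ*rsrB* value was above every Δ*ku70* value, again a count with no share of all genes beside it. The strongest were POX05863, with 0.11, 0.05 and 0.11 in Δ*rsrA* and 58.2, 44.0 and 36.6 in Δ*rsrB*, against 0.76, 0.33 and 0.27 in Δ*ku70*, and POX05862, with 0.20, 0.41 and 0.33 in Δ*rsrA* and 43.9, 41.9 and 30.15 in Δ*rsrB*, against 0.40, 0.07 and 0.47 in Δ*ku70*. In Δ*rsrA* the difference was -0.40 in POX05863 and 0.01 in POX05862. Summed over the 22 genes, FPKM was 16.5 ± 0.410 (SD, n = 3) in Δ*rsrA* and 232 ± 42.6 (SD, n = 3) in Δ*rsrB*, against 41.9 ± 12.5 (SD, n = 3) in Δ*ku70*. The single sums were 16.3, 17.0 and 16.2 in Δ*rsrA*, 266, 245 and 184 in Δ*rsrB*, and 56.2, 34.2 and 35.1 in Δ*ku70*. These sums rest on few genes. POX05869, which was not selected, averaged 10.49 FPKM in Δ*rsrA* and so made up most of the Δ*rsrA* sum. It averaged 21.1 FPKM in Δ*rsrB*, against 19.88 FPKM in Δ*ku70* (a log2 difference of 0.09). POX05862 and POX05863 averaged 38.7 and 46.3 FPKM in Δ*rsrB*. After scaling by the median of ratios, POX05855 alone of the 5 still met the limits, and without Δ*ku70* replicate 1, POX05855 and POX05871 did.

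**Figure D4:**
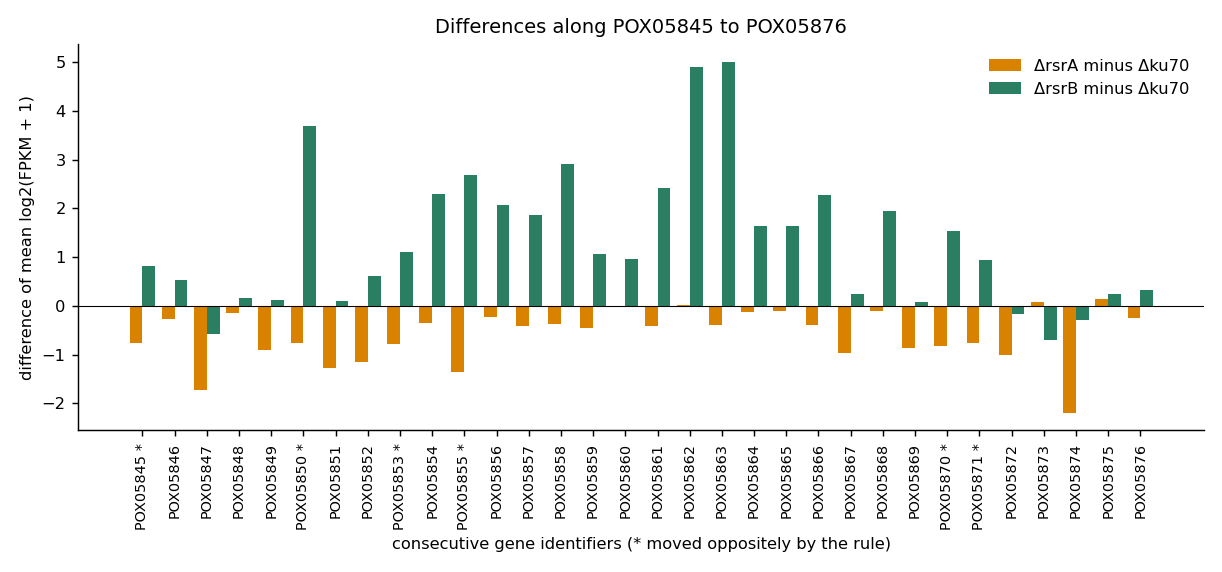
Differences of mean log2(FPKM + 1) from Δ*ku70* for 32 consecutive identifiers from POX05845 to POX05876, with Δ*rsrA* to the left and Δ*rsrB* to the right in each pair of bars. Asterisks mark genes that met all limits. The bars of Δ*rsrB* point upwards for all 22 identifiers from POX05850 to POX05871 and those of Δ*rsrA* downwards for 20 of them.

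Neighbouring genes that were not selected leaned the same way more broadly. The 98 listed identifiers directly before or after one of the 52 genes, and not themselves selected, included 52 with a mean below Δ*ku70* in Δ*rsrA* and above it in Δ*rsrB* (53.1%, against 28.7% of all genes). For the 23 genes of the other direction, 9 of 41 such neighbours shared their direction (22.0%, against 9.65% of all genes). These shares count any difference from 0, however small, and neighbours in a run share libraries and can share transcripts, so the shares are given as a description.

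The remaining 37 genes lowered in Δ*rsrA* and raised in Δ*rsrB*, counted without those named by rank, level or consecutive identifiers, differed from Δ*ku70* by -4.23 to -0.71 in Δ*rsrA* and by 0.70 to 3.69 in Δ*rsrB*. Their Δ*ku70* means ran from 1.11 to 114 FPKM, with 17 of them under 10 FPKM. Their median mean was 3.95 FPKM in Δ*rsrA* and 21.6 FPKM in Δ*rsrB*, against 11.01 FPKM in Δ*ku70*. Over all 52 genes, the mean in Δ*rsrB* was 2.96 to 134 times that in Δ*rsrA*, with a median of 8.05.

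Spread between replicates was wider in Δ*ku70* than in the mutants. The median SD of log2(FPKM + 1) in the 23 genes was 0.16 in Δ*rsrA* and 0.17 in Δ*rsrB*, against 0.35 in Δ*ku70*, and in the 52 genes it was 0.16 in Δ*rsrA* and 0.19 in Δ*rsrB*, against 0.43 in Δ*ku70*. Over all listed genes these medians were 0.14, 0.17 and 0.29, so the Δ*ku70* median was higher in the selected genes. Levels were not matched in this comparison. A mean of at least 1 FPKM was reached by all of the 23 and 52 genes, but by 8589 of the 9721 listed genes. Among the 52 genes Δ*ku70* replicate 1 was the lowest of its strain in 29 (55.8%) and the highest in 19 (36.5%). Of genes with a mean of at least 1 FPKM, it was the lowest in 44.3% and the highest in 37.0%. Among the 23 genes, Δ*rsrB* replicate 1 was the highest and replicate 3 the lowest of the Δ*rsrB* libraries in 17 genes each (73.9%, against 45.1% and 45.3% of genes with a mean of at least 1 FPKM). The part of single libraries in the selection was not tested beyond leaving them out.

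The fit across all genes gives the background to these numbers. With limma on log2(FPKM + 1), 9.74% of 8550 genes were called higher and 29.0% lower when Δ*rsrA* was set against Δ*ku70*, and 1.72% of 8597 genes higher and 2.23% lower for Δ*rsrB* (Benjamini-Hochberg adjusted p under 0.05). The paper, with its own processing and a false discovery rate under 0.05, reported more differing genes in each mutant than were called here. Of the 23 genes raised in Δ*rsrA* and lowered in Δ*rsrB*, 20 were called in Δ*rsrA* and 9 in Δ*rsrB*, all 9 of them in both. Of the 52 genes of the other direction, 43 of the 48 tested in Δ*rsrA* were called there, 16 of 52 were called in Δ*rsrB* and 14 in both. Between Δ*rsrA* and Δ*rsrB*, where 15.2% of 8491 genes were called higher and 45.1% lower in Δ*rsrA*, all 75 genes were called. The selection used the same libraries and contrasts, so nothing is read from these counts beyond the fact that most of the genes missed the threshold in Δ*rsrB* against Δ*ku70*.

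Under the single-library and scaling alternatives together, 28 of the 75 genes met the limits throughout. In the direction raised in Δ*rsrA*, these were 12 of 23 genes, among them POX05492, POX03800, POX09288, POX04289, POX05321, POX04356, POX01423, POX08227 and POX08228. In the direction lowered in Δ*rsrA*, they were 16 of 52, among them POX01764, POX03572, POX01044, POX05855, POX06102, POX09413, POX09687, POX09690 and POX04388. Other pseudocounts and limits were not part of this count. A pseudocount of 5, which weighs most on low values, kept 14 of the 23 genes and 17 of the 52. The genes named here therefore need not all have met the limits at that setting.

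**Figure D5:**
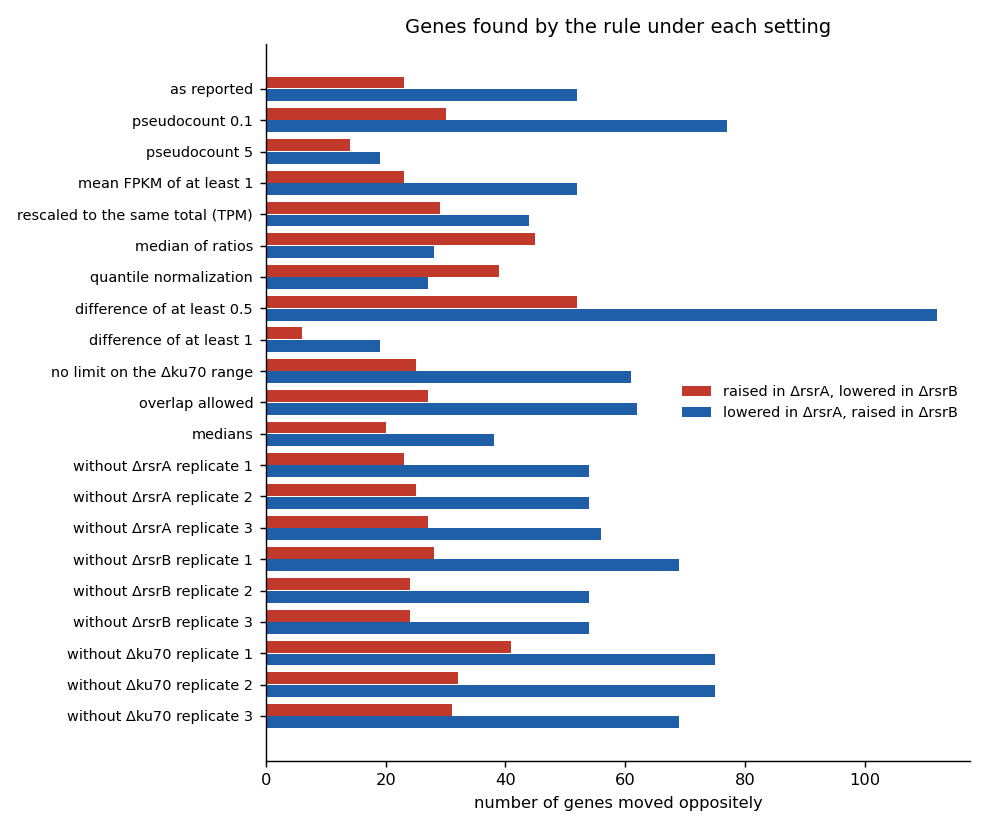
Number of genes that met the limits under each setting, with the direction raised in Δ*rsrA* and lowered in Δ*rsrB* above the other in each pair of bars. The counts run from 6 to 52 in the first direction and from 19 to 112 in the other, and the first direction is the larger one after scaling by the median of ratios (45 and 28) and quantile normalization (39 and 27).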

How the data were processed

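Poly(A) RNA of 3 strains was sequenced at BGI, in 3 libraries per strain that the paper calls biological replicates. The authors deposited one FPKM value per gene and library, rounded to hundredths. The paper names BWA, Bowtie2, RSEM and NOISeq, whereas the submitters' processing notes name bcl2fastq and HISAT2. Read filters and strandedness are not given in the sources used here. FPKM are relative to the mapped total of a library, so abundant genes lower all others. Sample titles gave the strain and replicate number.

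Values were used as deposited, as log2(FPKM + 1). The members and lists were chosen with earlier results of these data known. Named genes were, in each direction, the first 8 by the smaller of both differences, the 2 most abundant, those with the highest and lowest Δ*ku70* level and those with consecutive identifiers. For background, strains were compared in pairs with limma 3.58.1 (R 4.3.3, eBayes with trend) after genes with a mean under 1 FPKM were removed. The code was tested on simulated data. Alternatives were pseudocounts of 0.1 and 5, filters, rescaling to the same total, median of ratios, quantile normalization, other limits, a replicate block, 1 fit over 9 libraries and leaving out each library.

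After subtraction of strain means, libraries of Δ*rsrA* and of Δ*rsrB* that carry the same number had r = 0.581, 0.101 and 0.470 across genes, so the numbers were taken to pair these strains, from the values alone, although Δ*rsrA* replicate 2 correlated more with Δ*rsrB* replicate 3 (r = 0.25) than with replicate 2. Both mutants were nevertheless compared without a block, which was an alternative. Numbers of Δ*ku70* did not pair.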

Additional observations from a re-analysis of the deposited data

How the results depend on the processing

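The number of genes raised in Δ*rsrA* and lowered in Δ*rsrB* (23) moved by more than 1.5 times to 14 with a pseudocount of 5, 45 with the median of ratios, 39 with quantile normalization, and 52 or 6 with limits of 0.5 or 1. The other direction (52) moved to 19, 28 and 27 under the first 3 of these and to 112 or 19 under both limits. With a pseudocount of 0.1 there were 30 and 77 genes, sharing 22 and 46 with those reported. Leaving out single libraries gave 23 to 41 genes in the first direction and 54 to 75 in the other. The extremes of 41 and 75 were both reached without Δ*ku70* replicate 1, and 75 also without Δ*ku70* replicate 2. Limits set the counts directly, and for the other settings the cause was not tested.

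In limma, leaving out single libraries gave 1485 to 4553 calls for Δ*rsrA* against Δ*ku70* (3310) and 72 to 930 for Δ*rsrB* against Δ*ku70* (340), with the fewest without replicate 2 of the mutant and the most without Δ*ku70* replicate 1. With the replicate block, 149 genes were called in Δ*rsrB* against Δ*ku70*, where the numbers do not pair the libraries. The block gave 2226 calls for Δ*rsrA* against Δ*ku70* and 5861 for Δ*rsrA* against Δ*rsrB* (5123). For the latter, pairing by number was taken from the values alone and is not stated in the labels. One fit over all 9 libraries called 1123 genes in Δ*rsrB* against Δ*ku70*. Lowered genes made up 74.8% of the calls in Δ*rsrA* as deposited and 45.2% after scaling by the median of ratios.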

Other observations

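A further 11 genes met every limit except the one on the Δ*ku70* range, and they hold some of the widest opposite shifts. Of these, 9 were lowered in Δ*rsrA* and raised in Δ*rsrB* and 2 the reverse, and Δ*ku70* replicate 1 was the lowest Δ*ku70* library in 8 and the highest in the other 3. Of genes with a mean of at least 1 FPKM, that library was the lowest in 44.3% and the highest in 37.0%. POX07269 and POX07270, which are consecutive, had 0.36, 0.41 and 0.25 FPKM and 2.44, 3.44 and 2.65 FPKM in Δ*rsrA* and 81.7, 131 and 82.4 FPKM and 312, 420 and 303 FPKM in Δ*rsrB*, against 4.69, 22.6 and 10.7 FPKM and 19.5, 73.3 and 52.1 FPKM in Δ*ku70*. POX07269 was nearly silent in Δ*rsrA* and POX07270 was low there, and in Δ*rsrB* both lay several times above every Δ*ku70* library. POX07173 had 1.53, 0.99 and 1.80 FPKM in Δ*rsrA* and 646, 603 and 593 FPKM in Δ*rsrB*, against 9.53, 363 and 422 FPKM in Δ*ku70*, where replicate 1 lay near Δ*rsrA* and the others nearer to Δ*rsrB*.

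In the reverse direction, POX09561 had 857, 861 and 866 FPKM in Δ*rsrA* and 3.05, 1.85 and 1.85 FPKM in Δ*rsrB*, against 5.64, 31.9 and 29.4 FPKM in Δ*ku70*. Its differences, 5.52 and -2.55 (log2), exceeded those of all 23 genes of that direction on both sides. Without Δ*ku70* replicate 1, 6 of the 11 genes met all limits, POX07269, POX07270 and POX09561 among them. These genes were chosen after their values had been seen, and the part of Δ*ku70* replicate 1 in them was not tested.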
